A study of Homo sapiens with 6 samples.

Results

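RNA levels of 44 DNA repair genes were followed in Ewing sarcoma cells treated with THZ1, a covalent inhibitor of the transcription kinase CDK7. The genes were chosen by function, as those whose products carry out nucleotide excision, base excision, single-strand break, mismatch or end-joining repair, and all 44 were found among the 27420 genes listed in the deposited table, each in 1 row. A673 and SKNMC, which are established Ewing sarcoma cell lines grown in culture, were each exposed for 6 h to the vehicle DMSO, to 50 nM THZ1 or to 200 nM THZ1. Each of these 6 conditions has 1 RNA-seq library, so no difference within a line could be set against replicate error. A change shared by both lines was tested with the lines in the place of replicates. The levels are FPKM, fragment counts scaled to transcript length and library size, which makes levels of different genes comparable but gives shares of a library and not amounts per cell.

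Cells remove damaged DNA by several routes. In nucleotide excision repair a bulky lesion is recognised either across the whole genome or by a stalled RNA polymerase, the DNA is opened by TFIIH (the complex that also holds CDK7), and nucleases cut on both sides of the lesion. In base excision repair a glycosylase removes a single damaged base, an endonuclease cuts the abasic site, and a polymerase and a ligase fill the gap with help from PARP enzymes and XRCC1. Mismatch repair corrects replication errors, and non-homologous end joining rejoins broken ends that are bound by the Ku heterodimer. Ewing sarcoma cells are known for their sensitivity to PARP inhibitors.

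The members spanned a wide range of levels. With DMSO the median member was at 17.7 FPKM in A673 and at 15.7 FPKM in SKNMC, and the summed level of the 44 genes was 0.356% of all FPKM in A673 and 0.357% in SKNMC. In A673 their share was 0.336% at 50 nM and 0.337% at 200 nM THZ1, and in SKNMC it was 0.313% and 0.289%. The share was thus lower with THZ1 than with DMSO in all 4 treated libraries. The median member was at 9.80 and 7.75 FPKM in the treated A673 libraries and at 8.58 and 8.53 FPKM in those of SKNMC. A gene counted as active in a line if it exceeded 1 FPKM there with DMSO, which holds for 44 members in A673 and for 43 in SKNMC, where MLH3 was the exception. No member was listed at 0 in any library.

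Several facts of the libraries bear on these values. The FPKM sum of a treated library was between 97.8% and 101% of that of its DMSO library, and read depth is unknown. All 6 Ewing sarcoma markers examined (NR0B1, NKX2-2, CD99, STEAP1, FLI1 and PRKCB) were above 1 FPKM in every library, and their summed level ran from 507 to 946 FPKM. CD99, the largest part of that sum, was higher with THZ1 in both lines. From DMSO to 200 nM, FLI1 went from 31.5 to 4.26 FPKM in A673 and from 27.3 to 4.56 in SKNMC. NR0B1 went from 58.6 to 7.97 and from 25.2 to 8.10. NKX2-2 and STEAP1 were also lower in both lines, and PRKCB was higher in A673 and lower in SKNMC. Markers of epithelial, endothelial and muscle cells summed to at most 0.849, 0.127 and 0.0918 FPKM. Of 3 leukocyte markers, PTPRC was at 7.90 to 13.1 FPKM in SKNMC and at most 0.0291 FPKM in A673. The other leukocyte markers were low in every library, with CD3E at 0 FPKM and LYZ at most 0.167 FPKM. The part of PTPRC-expressing cells in the results was not tested. The 79 cytosolic ribosomal protein genes made up 13.6% of the FPKM sum of A673 with DMSO and 16.1% and 17.7% with THZ1 at 50 and 200 nM, and for SKNMC these shares were 19.0%, 24.7% and 29.7%. Their part in the levels of the members was not tested. Fewer cells of a type and less RNA per cell cannot be told apart in such bulk libraries.

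Changes are given as log2 of the ratio of FPKM + 1, a scale on which low genes appear to change less than they did, and a gene is called decreased or increased from a 2-fold change unless another fold is named. At 50 nM THZ1, 9 of 44 active members (20.5%) decreased in A673, against 15.9% of all active genes, and 11 of 43 (25.6%) decreased in SKNMC, against 15.8%. At 200 nM, 15 members (34.1%) decreased in A673, against 25.3% of all active genes, and 16 (37.2%) in SKNMC, against 27.3%. No member increased 2-fold, which 0.343%, 0.126%, 0.471% and 0.462% of all active genes did in the same 4 comparisons, in the order A673 at 50 and 200 nM and SKNMC at 50 and 200 nM. At a 1.5-fold threshold 20 and 18 members decreased in A673, against 31.8% and 41.1% of all active genes, and 21 and 28 in SKNMC, against 33.5% and 48%. At 4-fold, NEIL3, APEX2 and EXO1 decreased in A673 at 200 nM (4.7% of all active genes did) and APEX2 and EXO1 in SKNMC at 200 nM (3.53%). Increases of 1.5-fold were seen for NEIL1 in A673 and PRKDC in SKNMC, both at 200 nM, and for no member at 50 nM, where 1.78% and 2.43% of all active genes had one. The median change of the members in A673 was -0.53 for the lower and -0.40 for the higher dose, where all active genes had medians of -0.27 and -0.40. In SKNMC the members had medians of -0.56 and -0.82, and all active genes had -0.32 and -0.55. The median of the members thus lay below that of all active genes in 3 comparisons and beside it in A673 at 200 nM, where 22 of 44 members were below the median of all active genes. Both doses of a line are compared with the same DMSO library, so an error in that library enters both.

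A linear model with cell line and dose as additive terms was fitted with limma to log2(FPKM + 1) of the 10574 genes active in both lines. It measures the change common to both lines against the disagreement between them. There are 2 residual degrees of freedom per gene, and pooling the spread across genes brings the median total to 11.5. The p-values of the model thus lean on other genes, and they speak for these lines and not for repeat cultures. At a Benjamini-Hochberg adjusted p under 0.05, 24 of 43 members were lower at 50 nM (55.8%, against 38.5% of all genes) and 26 at 200 nM (60.5%, against 52.7%). PRKDC alone was higher at 50 nM (2.33%, against 5.12%), and CETN2, NEIL1 and PRKDC were at 200 nM (6.98%, against 6.08%). In limma the change of EXO1 common to both lines was -1.41 ± 0.19 (SE) at 50 nM, with an adjusted p of 0.000139, and -2.43 ± 0.19 at 200 nM, with an adjusted p of 2.22e-06. That of PRKDC was 0.45 ± 0.15 (limma adjusted p = 0.0282) and 0.68 ± 0.15 (limma adjusted p = 0.00196). EXO1 and PRKDC had the lowest and the highest mean change of the members in these same libraries, so these p-values add no support for them. These calls moved with the scaling. Under the 75th percentile 17 members (39.5%) were lower at each dose, against 25.1% of all genes at 50 nM and 31.9% at 200 nM. Those higher were 7 and 10 (16.3% and 23.3%), against 17.7% and 24.7%. Under the ribosomal protein median 32 and 38 were lower (74.4% and 88.4%), against 58% and 79.4%. None was higher there, PRKDC included, against 0.984% and 0.331% of all genes.

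**Figure D1:**
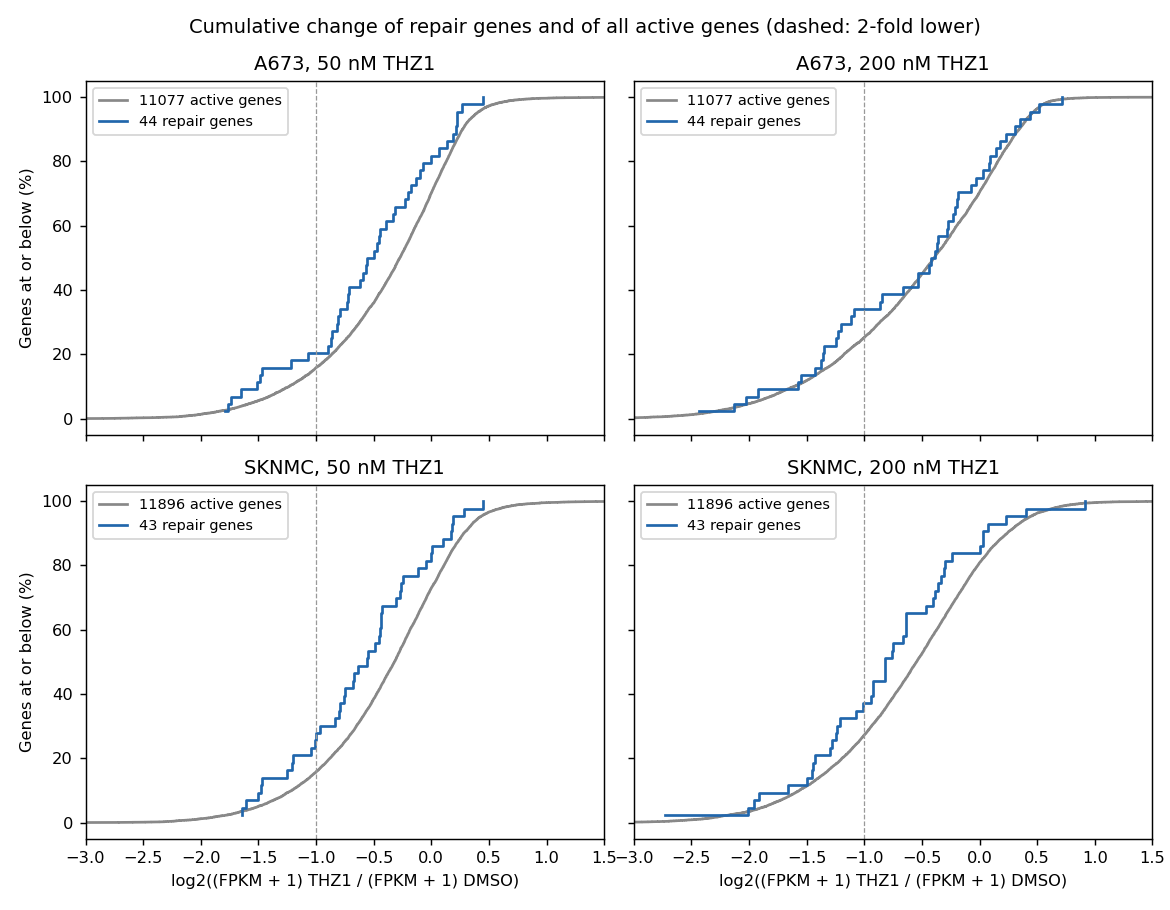
Cumulative share of genes (vertical axis, percent) at or below a given change (horizontal axis, log2 of the ratio of FPKM + 1, THZ1 over DMSO) for repair genes (blue) and all active genes (grey), with 1 panel per cell line and dose. The blue curve reaches 20.5% and 25.6% at the 2-fold line at 50 nM, where the grey curve is at 15.9% and 15.8%, and in A673 at 200 nM the curves meet near their medians. The axis ends at -3 and 1.5, and a few grey genes lie beyond.

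These calls depend on how libraries are scaled. With each library divided by its 75th percentile over active genes, the scaling moved the median change of all active genes by 0.22 and 0.32 in A673 at 50 and 200 nM and by 0.25 and 0.48 in SKNMC, and with division by the median ribosomal protein gene it was moved by -0.21, -0.33, -0.29 and -0.46. Under the 75th percentile 7 and 10 members (15.9% and 22.7%) decreased in A673, against 11% and 17.3% of all active genes, and 6 and 7 (14% and 16.3%) in SKNMC, against 10.3% and 13.4%. At 200 nM under this scaling PRKDC in SKNMC was at 1.48 and NEIL1 in A673 at 1.01, both past 2-fold. The same scaling raised the median of all active genes there by 0.48 and 0.32. The share of all active genes that increased 2-fold under it was not computed. Under the ribosomal median 13 and 17 members (29.5% and 38.6%) decreased in A673, against 21.9% and 36.4%, and 16 and 29 (37.2% and 67.4%) in SKNMC, against 25.7% and 50.5%. The members higher than DMSO numbered 8 and 11 in A673 and 8 and 7 in SKNMC as deposited, 14, 18, 12 and 15 under the 75th percentile, and 2, 3, 1 and 1 under the ribosomal median. Of all active genes 29.9%, 29.6%, 27% and 19.2% were higher than DMSO as deposited, 46.4%, 46.2%, 45.6% and 46.3% under the 75th percentile, and 12.6%, 8.54%, 8.52% and 3.51% under the ribosomal median.

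A subset of members was lower throughout. Of the 43 members active in both lines, 7 decreased at least 2-fold in all 4 comparisons (16.3%, against 8.7% of the 10574 genes active in both lines), and they come from 5 of the repair routes or steps. They are the mismatch repair genes EXO1 and PMS2, the glycosylase genes NEIL3 and TDG, the abasic site nuclease gene APEX2, the incision nuclease gene ERCC4 and the end-joining ligase gene LIG4. Under the 75th percentile 3 of these remained past 2-fold in all 4 comparisons, namely ERCC4, NEIL3 and APEX2 (6.98%, against 4.71% of all genes). Equal library sums left 6 of them, without LIG4 (14%, against 8.52%), and the ribosomal median gave 9, with MUTYH and XPC added (20.9%, against 15.3%). All 7 were among the members called lower at both doses by limma as deposited. This follows largely from how they were chosen, since limma used the same libraries, so it adds no support. Another 23 members decreased 2-fold in none of the 4 comparisons (53.5%, against 62.7%). Of these, CETN2, DDB1, PARP1, XRCC6 and PRKDC were higher than DMSO in all 4 comparisons (11.6% of the members, against 10%), a direction that PRKDC alone kept in all 4 under the ribosomal median.

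**Figure D2:**
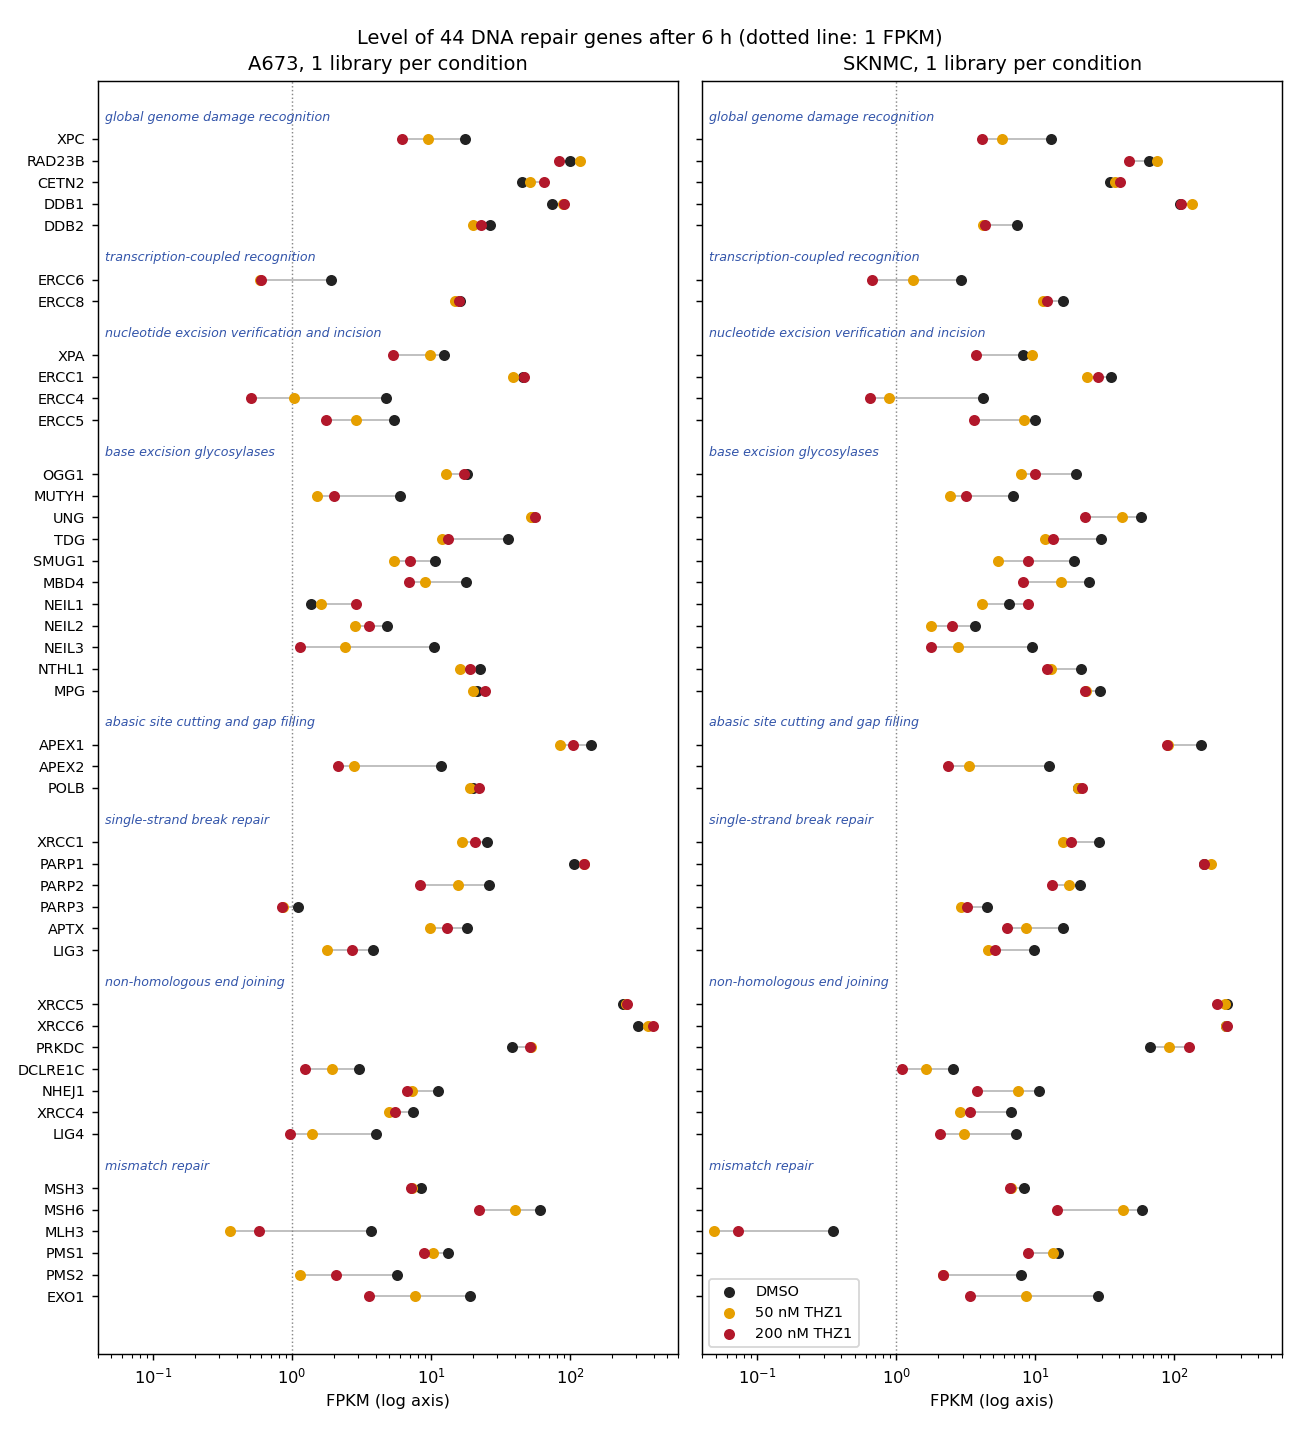
FPKM of each of the 44 repair genes (log axis) with DMSO (black), 50 nM THZ1 (orange) and 200 nM THZ1 (red) in A673 and SKNMC, grouped by repair role, with 1 library per point. EXO1, NEIL3, APEX2 and ERCC4 show wide gaps between black and coloured points in both lines, while the points of XRCC5, XRCC6, PARP1 and POLB lie close together, and MLH3 is the only member left of the 1 FPKM line with DMSO, in SKNMC.

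Promoters of 2 sets of members are shown to let a reader compare genes that moved apart. The first are the 3 members with the lowest mean change over the 4 comparisons. The others are CETN2 and DDB1, which follow PRKDC, the member with the highest mean change, for which no promoter was matched. Under the ribosomal median most changes of CETN2 and DDB1 were below 0. Promoter sequence from RefSeq (GRCh38.p14, a later build than the hg19 of the expression table) was matched for 39 of the 44 members. The 250 bases before the start are given 5′ to 3′ on the strand of the gene, and capitals mark CCAAT (the CCAAT box) and GGGCGG (the GC box), or their reverse complements. The regions are chr1:241847954-241848203 (plus strand) for EXO1, chr4:177309624-177309873 (plus) for NEIL3, chrX:55000113-55000362 (plus) for APEX2, chrX:152830758-152831007 (minus) for CETN2 and chr11:61333106-61333355 (minus) for DDB1.
EXO1: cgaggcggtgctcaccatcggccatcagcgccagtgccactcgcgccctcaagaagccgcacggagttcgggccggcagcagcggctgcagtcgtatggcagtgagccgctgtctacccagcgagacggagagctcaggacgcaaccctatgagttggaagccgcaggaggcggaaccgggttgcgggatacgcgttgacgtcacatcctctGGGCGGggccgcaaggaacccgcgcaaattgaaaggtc
NEIL3: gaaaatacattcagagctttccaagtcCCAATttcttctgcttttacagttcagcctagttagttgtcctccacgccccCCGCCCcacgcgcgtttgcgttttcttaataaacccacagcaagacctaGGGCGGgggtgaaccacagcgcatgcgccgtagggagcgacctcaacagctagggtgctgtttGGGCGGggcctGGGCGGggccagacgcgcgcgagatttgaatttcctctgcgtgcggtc
APEX2: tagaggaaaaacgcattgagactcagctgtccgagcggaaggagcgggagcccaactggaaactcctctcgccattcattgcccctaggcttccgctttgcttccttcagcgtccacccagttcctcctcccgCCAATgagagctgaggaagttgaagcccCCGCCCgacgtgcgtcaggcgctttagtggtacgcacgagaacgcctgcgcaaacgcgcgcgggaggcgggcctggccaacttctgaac
CETN2: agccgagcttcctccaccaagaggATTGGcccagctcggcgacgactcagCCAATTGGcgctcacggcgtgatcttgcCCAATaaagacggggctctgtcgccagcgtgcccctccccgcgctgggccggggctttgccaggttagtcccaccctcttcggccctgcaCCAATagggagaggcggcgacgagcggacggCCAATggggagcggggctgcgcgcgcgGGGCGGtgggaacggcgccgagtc
DDB1: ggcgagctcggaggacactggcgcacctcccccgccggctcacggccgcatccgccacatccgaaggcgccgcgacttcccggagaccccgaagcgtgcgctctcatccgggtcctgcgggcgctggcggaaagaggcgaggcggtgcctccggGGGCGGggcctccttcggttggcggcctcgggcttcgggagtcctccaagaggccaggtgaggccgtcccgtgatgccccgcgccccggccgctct

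CCAAT and GC boxes were found both among members that decreased and among members that were higher. A CCAAT box was in 18 of 39 member promoters (46.2%) and in 35.8% of the 8069 promoters matched to genes active in both lines, and a GC box was in 28 (71.8%) and in 69.3%. Of the 7 members that decreased in all 4 comparisons, 4 had a CCAAT box and 4 a GC box, and of the 4 matched members that were higher in all 4, 2 had a CCAAT box and 4 a GC box. The core motif of NRF1, a factor of many housekeeping promoters, was in 12 member promoters (30.8%) and in 15.5% of those of active genes, and CCGGAA, the core bound by ETS factors, was in 8 (20.5%) and in 27.8%. The E2F core TTTNNCGC was in 6 (15.4%) and in 9.59%, the CHR element TTTGAA in 2 (5.13%) and in 8.22%, and the TATA box TATAAA in 1 (2.56%) and in 4.62%. All motifs were sought on both strands, and matches of different motifs may overlap. Over all 27305 promoters the shares were 33% for the CCAAT box and 42.3% for the GC box. A match is a run of letters and not a bound site.

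Damage recognition in nucleotide excision repair split within its own complex. XPC (ENSG00000154767, chr3:14186646-14220283 in hg19, as for the gene positions that follow, minus strand), the DNA-binding sensor of the global genome route, was at 17.6, 9.54 and 6.15 FPKM in A673 and at 13.0, 5.79 and 4.15 FPKM in SKNMC, in the order DMSO, 50 nM and 200 nM that is kept throughout. Its change was -0.82 and -1.38 in A673 and -1.04 and -1.44 in SKNMC, so it was lower with each dose and past 2-fold in 3 of 4 comparisons. CETN2 (ENSG00000147400, chrX:151995516-151999321, minus strand), centrin 2, which binds XPC, was at 45.2, 51.6 and 65.0 FPKM in A673 and at 34.7, 37.4 and 40.8 FPKM in SKNMC. It was higher with each dose in both lines, although under the ribosomal median 3 of its 4 changes were below 0. RAD23B, the third protein of that complex, was at 101, 117 and 82.9 FPKM in A673 and at 66.0, 75.1 and 47.5 FPKM in SKNMC, higher than DMSO at 50 nM and lower at 200 nM in both lines as deposited, whereas all 4 changes were below 0 under the ribosomal median and above 0 under the 75th percentile. The FPKM ratio of RAD23B to XPC, which no scaling of a library alters, went from 5.71 with DMSO to 12.3 and 13.5 in A673 and from 5.08 to 13.0 and 11.4 in SKNMC.

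The UV-damage binding proteins differed between the lines before treatment. DDB2 (ENSG00000134574, chr11:47236492-47260767, plus strand), the subunit that finds UV lesions, was at 26.5, 19.9 and 23.0 FPKM in A673 and at 7.33, 4.22 and 4.35 FPKM in SKNMC with DMSO, 50 nM and 200 nM. DDB1, its partner and an adaptor of CUL4 ubiquitin ligases, was at 73.6, 88.9 and 91.1 FPKM in A673 and at 109, 134 and 112 FPKM in SKNMC. There were 2.78 DDB1 transcripts per DDB2 transcript by FPKM in A673 with DMSO and 14.9 in SKNMC, and the ratio was higher with THZ1, at 4.47 and 3.96 in A673 and at 31.7 and 25.6 in SKNMC.

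Of the transcription-coupled sensors, which act where RNA polymerase stalls, ERCC6 (CSB) stood lower with THZ1 and ERCC8 (CSA) changed little. ERCC6 was at 1.91, 0.591 and 0.602 FPKM in A673 and at 2.92, 1.32 and 0.668 FPKM in SKNMC, a change of -1.23 in SKNMC at 200 nM and between -0.87 and -0.76 in the others. At these low levels the added 1 hides part of the change, since with 0.1 added it was -1.54 and -1.52 in A673 and -1.98 in SKNMC at 200 nM. ERCC8 was at 16.3, 14.8 and 15.9 FPKM in A673 and at 15.7, 11.4 and 12.0 FPKM in SKNMC. ERCC6 overlaps the listed genes PGBD3 and ERCC6-PGBD3 on its own strand, and its fragments may have been divided among them.

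Verification and incision showed the widest gap between partners of 1 enzyme. ERCC4 (XPF; ENSG00000175595, chr16:14014013-14046202, plus strand) is the catalytic subunit of the nuclease that cuts 5′ of the lesion, and it was at 4.73, 1.04 and 0.510 FPKM in A673 and at 4.21, 0.885 and 0.642 FPKM in SKNMC. ERCC1 (ENSG00000012061, chr19:45910590-45982086, minus strand), the subunit it is paired with, was at 45.7, 39.0 and 46.7 FPKM in A673 and at 34.9, 23.4 and 28.2 FPKM in SKNMC. The change of ERCC4 was -1.49 and -1.92 in A673 and -1.47 and -1.67 in SKNMC, while that of ERCC1 stayed between -0.56 and 0.03. With 0.1 added in place of 1, ERCC4 was at -2.08 and -2.98 in A673 and at -2.13 and -2.54 in SKNMC. The ratio of ERCC1 to ERCC4 was 9.67, 37.5 and 91.5 in A673 and 8.29, 26.4 and 43.9 in SKNMC, so it was 9.46 and 5.30 times its DMSO value at 200 nM.

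XPA and ERCC5 separated the doses. XPA, the scaffold that verifies the lesion, was at 12.4, 9.76 and 5.29 FPKM in A673 and at 8.13, 9.43 and 3.74 FPKM in SKNMC, above DMSO at 50 nM in SKNMC (below it under the ribosomal median) and at least 1.5-fold lower at 200 nM than at 50 nM in both lines. ERCC5 (XPG), the nuclease that cuts 3′ of the lesion, was at 5.42, 2.87 and 1.75 FPKM in A673 and at 10.0, 8.29 and 3.65 FPKM in SKNMC. ERCC5 shares its strand and sequence span with the read-through gene BIVM-ERCC5, so fragments may have been divided between them. ERCC1 overlaps the oppositely oriented genes CD3EAP and FOSB. Whether strand was used in counting is not given in the sources used here.

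The 11 DNA glycosylase genes differed widely in their changes. In A673, 3 of them decreased at the lower dose and 4 at the higher, beside 15.9% and 25.3% of all active genes, and in SKNMC 5 decreased at each dose, beside 15.8% and 27.3%. NEIL3 (ENSG00000109674, chr4:178230989-178284097, plus strand), which acts on oxidised bases in single-stranded and crosslinked DNA, was at 10.5, 2.40 and 1.14 FPKM in A673 and at 9.48, 2.76 and 1.78 FPKM in SKNMC. Its changes of -1.76 and -2.43 in A673 and -1.48 and -1.91 in SKNMC placed it at percentiles 2.77, 1.53, 5.35 and 4.43 of all active genes, and with 0.1 added the change in A673 at 200 nM was -3.10. NEIL1, a glycosylase for oxidised bases in duplex DNA, went the other way at 200 nM. It was at 1.37, 1.60 and 2.90 FPKM in A673 and at 6.47, 4.11 and 8.90 FPKM in SKNMC, which is 1.5-fold or more above DMSO in A673 at 200 nM (0.72 on the log2 scale, as 1.7% of all active genes were) and 0.41 on the log2 scale above it in SKNMC, where the ribosomal median turned the sign. NEIL1 overlaps a listed lincRNA gene, RP11-817O13.6, on the other strand. NEIL2, the third of these relatives, lay between, at 4.85, 2.81 and 3.55 FPKM in A673 and at 3.67, 1.79 and 2.53 FPKM in SKNMC.

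TDG (ENSG00000139372, chr12:104359581-104382652, plus strand), the thymine glycosylase that also removes oxidised forms of methylcytosine, was at 35.8, 11.9 and 13.3 FPKM in A673 and at 29.5, 11.8 and 13.5 FPKM in SKNMC. As deposited its low point was at 50 nM in both lines, with changes of -1.51 and -1.25 there and of -1.36 and -1.08 at 200 nM, but under the ribosomal median they were -1.74 at both doses in A673 and -1.57 and -1.62 in SKNMC. MUTYH, which removes adenine opposite oxidised guanine, had the same shape at 5.95, 1.51 and 2.01 FPKM in A673 and at 6.92, 2.42 and 3.18 FPKM in SKNMC. OGG1, the glycosylase for oxidised guanine itself, was at 18.2, 12.9 and 17.3 FPKM in A673 and at 19.6, 7.95 and 9.87 FPKM in SKNMC. SMUG1, a uracil glycosylase, was at 10.8, 5.45 and 7.11 FPKM in A673 and at 18.9, 5.38 and 8.85 FPKM in SKNMC. As deposited these 4 genes were lower at 50 nM than at 200 nM in both lines. MBD4, which removes thymine from methylated CpG sites, had the reverse order, at 17.8, 9.11 and 6.92 FPKM in A673 and at 24.3, 15.3 and 8.22 FPKM in SKNMC.

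UNG, the main nuclear and mitochondrial uracil glycosylase, differed in its values between the lines. It was at 52.9, 52.7 and 56.0 FPKM in A673 and at 57.3, 42.4 and 22.7 FPKM in SKNMC, so changes of -0.01 and 0.08 stood beside changes of -0.43 and -1.30. With 1 library per condition this difference was not tested. MPG, which removes alkylated purines, was at 21.4, 20.0 and 24.4 FPKM in A673 and at 29.0, 23.3 and 22.8 FPKM in SKNMC. NTHL1, for oxidised pyrimidines, was at 22.3, 16.2 and 18.9 FPKM in A673 and at 21.2, 12.9 and 12.2 FPKM in SKNMC, and neither gene decreased 2-fold in any library.

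Downstream of the glycosylases, the minor abasic site nuclease gene decreased and the polymerase gene had values near those of DMSO as deposited. APEX2 (ENSG00000169188, chrX:55026789-55035490, plus strand) was at 11.7, 2.81 and 2.13 FPKM in A673 and at 12.6, 3.35 and 2.37 FPKM in SKNMC. Its changes of -1.74, -2.03, -1.64 and -2.01 were alike in both lines. APEX1, which encodes the major abasic site endonuclease, was at 141, 84.9 and 105 FPKM in A673 and at 156, 89.8 and 88.1 FPKM in SKNMC, past 1.5-fold but not 2-fold lower in 3 of 4 comparisons. POLB, the gap-filling polymerase, was at 20.1, 19.0 and 22.3 FPKM in A673 and at 20.4, 20.4 and 21.5 FPKM in SKNMC, and its 4 changes lay between -0.08 and 0.14 as deposited, between 0.17 and 0.62 under the 75th percentile and between -0.48 and -0.24 under the ribosomal median. The ratio of APEX1 to APEX2 was 12.0, 30.2 and 49.4 in A673 and 12.4, 26.8 and 37.2 in SKNMC. APEX2 overlaps ALAS2 on the other strand.

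In single-strand break repair the PARP genes parted. PARP1 (ENSG00000143799, chr1:226548391-226595780, minus strand), the main sensor of nicks, was at 107, 126 and 126 FPKM in A673 and at 164, 184 and 164 FPKM in SKNMC. Its changes of 0.22, 0.23, 0.17 and 0.0041 were above 0 as deposited and below 0 in all 4 comparisons under the ribosomal median. PARP2, which acts beside PARP1 at nicks, was at 26.2, 15.6 and 8.29 FPKM in A673 and at 21.0, 17.4 and 13.1 FPKM in SKNMC, a change of -1.55 in A673 and of -0.64 in SKNMC at 200 nM. The ratio of PARP1 to PARP2 was higher with each dose, going from 4.11 to 8.07 and 15.2 in A673 and from 7.79 to 10.6 and 12.5 in SKNMC. PARP3, a relative that acts at double-strand breaks, was at 1.10, 0.863 and 0.849 FPKM in A673 and at 4.51, 2.92 and 3.21 FPKM in SKNMC.

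The remaining genes of this route were lower with THZ1 in both lines. APTX (aprataxin), which clears stalled ligation intermediates, was at 18.0, 9.84 and 13.0 FPKM in A673 and at 15.7, 8.58 and 6.24 FPKM in SKNMC, and its change of -1.21 in SKNMC at 200 nM was the only 1 past 2-fold. XRCC1, the scaffold, was at 25.4, 16.8 and 20.7 FPKM in A673 and at 28.7, 15.7 and 18.1 FPKM in SKNMC. LIG3, the ligase bound to XRCC1, was at 3.83, 1.78 and 2.69 FPKM in A673 and at 9.84, 4.55 and 5.13 FPKM in SKNMC. Scaffold and ligase moved nearly together, since the ratio of XRCC1 to LIG3 stayed between 6.65 and 9.43 in A673 and between 2.92 and 3.52 in SKNMC.

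End joining combined the most abundant members with some of the least abundant. XRCC6 (Ku70; ENSG00000196419, chr22:42017122-42060044, plus strand) was at 309.5, 361 and 394 FPKM in A673 and at 235, 236 and 239 FPKM in SKNMC, the highest level of any member in 5 of the 6 libraries. XRCC5 (Ku80), with which it forms the ring that binds broken ends, was at 241, 253 and 256 FPKM in A673 and at 239, 231 and 202 FPKM in SKNMC. Their ratio stayed between 1.28 and 1.54 in A673 and between 0.984 and 1.18 in SKNMC. PRKDC (ENSG00000253729, chr8:48685668-48872743, minus strand), the catalytic subunit of the DNA-dependent protein kinase that Ku recruits, was at 38.0, 52.3 and 51.9 FPKM in A673 and at 67.0, 91.9 and 127 FPKM in SKNMC. Its changes of 0.45, 0.44, 0.45 and 0.92 stood at percentiles 96.3, 94.4, 95.7 and 99.4 of all active genes and were above 0 under all 3 scalings, down to 0.04 in A673 at 200 nM under the ribosomal median. It was the only member increased at least 1.5-fold in SKNMC at 200 nM, as 2.81% of all active genes were.

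The genes that act after Ku and the kinase were lower with THZ1. DCLRE1C (Artemis), the nuclease the kinase activates, was at 3.03, 1.95 and 1.24 FPKM in A673 and at 2.57, 1.63 and 1.10 FPKM in SKNMC, and the ratio of PRKDC to DCLRE1C went from 12.5 to 26.8 and 41.7 in A673 and from 26.1 to 56.4 and 115 in SKNMC. LIG4 (ENSG00000174405, chr13:108859786-108870716, minus strand), the ligase of this route, was at 4.03, 1.39 and 0.970 FPKM in A673 and at 7.25, 3.09 and 2.06 FPKM in SKNMC, with changes of -1.07, -1.35, -1.01 and -1.43. XRCC4, its obligate partner, was at 7.40, 4.94 and 5.49 FPKM in A673 and at 6.72, 2.87 and 3.37 FPKM in SKNMC. The ratio of XRCC4 to LIG4 was 1.84, 3.56 and 5.66 in A673 and 0.927, 0.927 and 1.64 in SKNMC, so at 50 nM it differed from DMSO in A673 and hardly at all in SKNMC. NHEJ1 (XLF), which bridges the ends with XRCC4, was at 11.3, 7.31 and 6.74 FPKM in A673 and at 10.6, 7.48 and 3.79 FPKM in SKNMC.

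**Figure D3:**
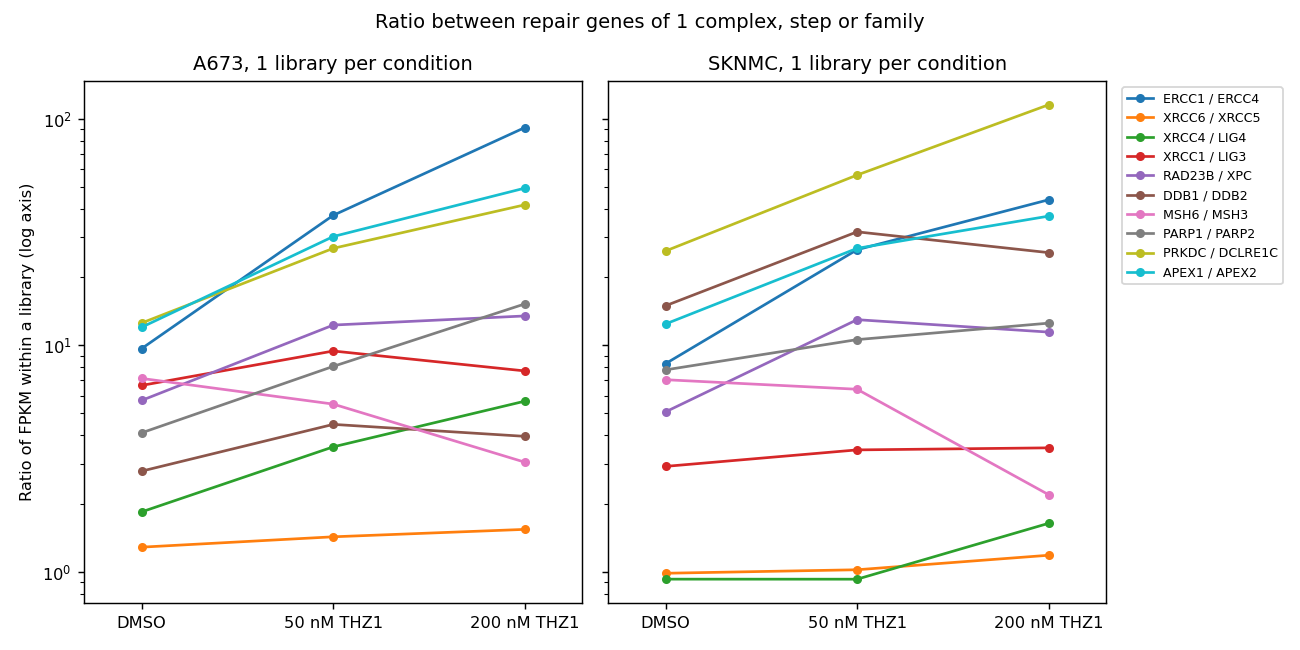
Ratio of FPKM between members of a complex, repair step or family (vertical log axis) with DMSO, 50 nM and 200 nM THZ1 in A673 and SKNMC, with 1 library per point. ERCC1 over ERCC4 climbs from 9.67 to 91.5 in A673 and from 8.29 to 43.9 in SKNMC, XRCC6 over XRCC5 is nearly flat, and MSH6 over MSH3 is the only ratio that is lower at both doses in both lines.

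Mismatch repair had no member higher than DMSO in any comparison as deposited, while under the 75th percentile MSH3 was above 0 in 3 comparisons, by at most 0.20, and PMS1 in SKNMC at 50 nM, by 0.16. Of its 6 genes active in A673, 3 decreased at the lower and 4 at the higher dose, and of the 5 active in SKNMC 2 and 3 did, beside 15.9%, 25.3%, 15.8% and 27.3% of all active genes. EXO1 (ENSG00000174371, chr1:242011268-242058450, plus strand), the exonuclease that removes the strand with the error and also resects broken ends, was at 19.0, 7.64 and 3.59 FPKM in A673 and at 28.1, 8.59 and 3.40 FPKM in SKNMC. Its changes of -1.21, -2.13, -1.60 and -2.73 include the steepest of any member in SKNMC at 200 nM, at percentile 0.429 of all active genes. PMS2, the endonuclease subunit of the matchmaker complex, was at 5.68, 1.13 and 2.09 FPKM in A673 and at 7.93, 2.16 and 2.17 FPKM in SKNMC. GENCODE lists 12 pseudogenes named after PMS2, some near-identical to it, so its level is uncertain where counting divided shared reads. Pseudogenes so named are listed for 8 of the 44 members, and the same limit may hold for the others. These are XRCC6 with 5, RAD23B with 3, PARP1 and UNG with 2 each, and TDG, SMUG1 and DCLRE1C with 1 each.

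MSH6 and MSH3 bind the same partner protein and recognise different mismatches, and their values diverged. MSH6, for single base mismatches, was at 60.8, 40.0 and 22.0 FPKM in A673 and at 58.6, 43.0 and 14.3 FPKM in SKNMC. MSH3, for larger loops, was at 8.52, 7.28 and 7.21 FPKM in A673 and at 8.31, 6.72 and 6.54 FPKM in SKNMC. Their ratio was 7.14, 5.50 and 3.05 in A673 and 7.04, 6.39 and 2.19 in SKNMC, so most of the shift lay between 50 and 200 nM. PMS1, whose product forms a minor matchmaker complex, was at 13.3, 10.3 and 8.85 FPKM in A673 and at 14.7, 13.5 and 8.87 FPKM in SKNMC. MLH3, another minor partner, was at 3.70, 0.358 and 0.578 FPKM in A673 and at 0.351, 0.0486 and 0.0729 FPKM in SKNMC. Its change of -1.79 in A673 at 50 nM was the steepest of the members there, and with 0.1 added it was -3.05.

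**Figure D4:**
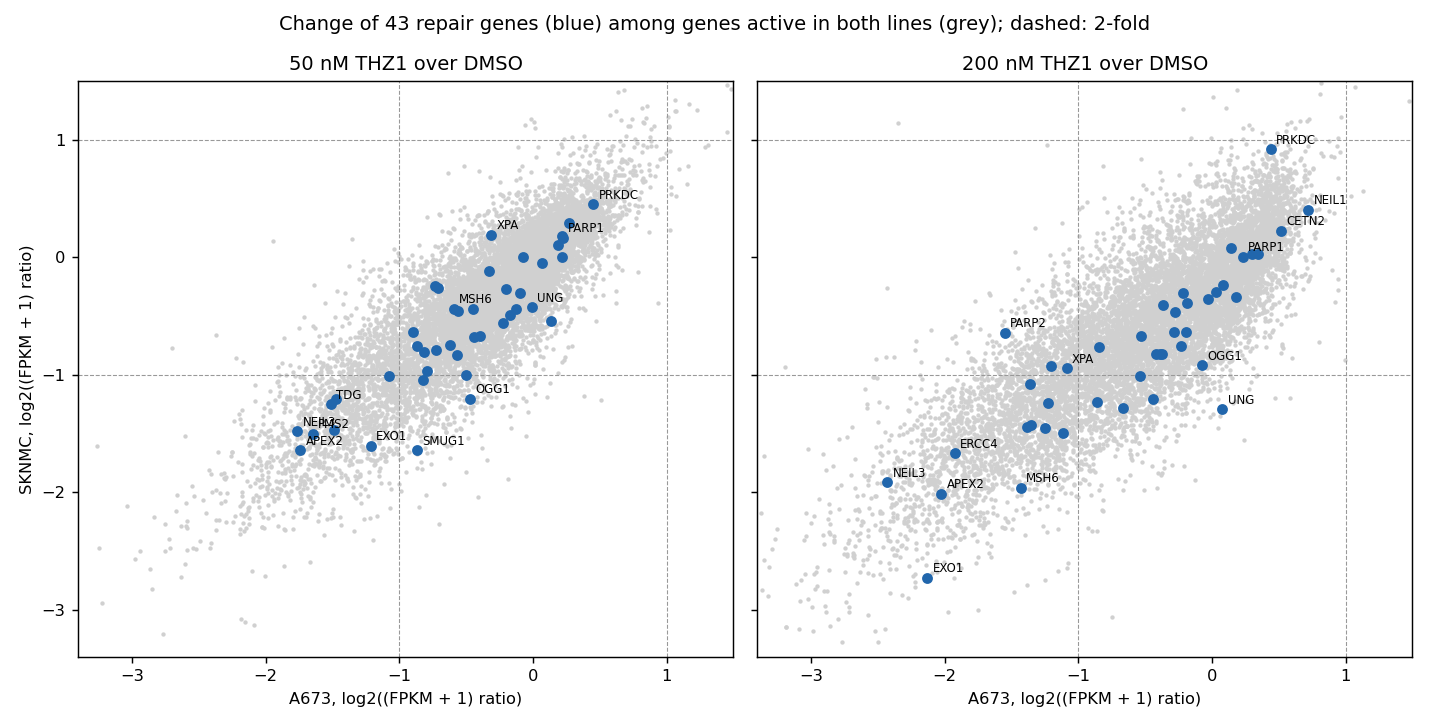
Change in A673 (horizontal axis) against change in SKNMC (vertical axis), both as log2 of the ratio of FPKM + 1 over DMSO, at 50 nM and 200 nM THZ1, for 43 repair genes active in both lines (blue, some named) and all genes active in both (grey, cropped to the axes). At 200 nM EXO1 lies lowest, at -2.13 and -2.73, PRKDC is the highest repair gene on the SKNMC axis at 0.92, and UNG lies apart from the main trend at 0.08 and -1.30.

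With DMSO, 5 of 44 members (11.4%) were at least 2-fold apart between the lines, against 23.5% of the 12399 genes active in either line. DDB2 and MLH3 were higher in A673, by 1.72 and 1.80 on the log2 scale of FPKM + 1 (8.42% of all genes tested were), and NEIL1, PARP3 and LIG3 were lower in A673, with differences of -1.66, -1.39 and -1.17 (15% were). The other 39 members were within 2-fold, and the median difference over the members was -0.0015, against -0.11 over all genes tested.

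The comparison of the doses with each other does not use the DMSO value beyond the choice of active genes. In A673, 5 of 44 members (11.4%) were at least 1.5-fold lower at 200 nM than at 50 nM, against 18% of all active genes, and these were XPA, NEIL3, PARP2, MSH6 and EXO1. In SKNMC, 8 of 43 members (18.6%) were, against 22.1%, and these were RAD23B, XPA, ERCC5, UNG, MBD4, NHEJ1, MSH6 and EXO1. XPA, MSH6 and EXO1 were lower in both lines (6.98% of the members, against 14.4% of all genes active in both). MSH6 had the steepest step in SKNMC, at -1.52, and EXO1 in A673, at -0.91. No member was 1.5-fold higher at 200 nM in A673 (2.33% of all active genes were), and SMUG1 and NEIL1 were in SKNMC (4.65%, against 3.77%). Counting steps of any size, 18 members were lower at 200 nM than at 50 nM in A673, against 51.7% of all active genes, and 25 in SKNMC, against 62%. The medians over the members were 0.06 in A673 and -0.08 in SKNMC, against -0.02 and -0.14 over all active genes.

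Level, length and composition were set beside the changes as descriptions across genes, which share libraries and are not replicates. Over the 43 members active in both lines, Spearman's rho between FPKM with DMSO and the change was 0.47 and 0.37 in A673 at 50 and 200 nM and 0.42 and 0.30 in SKNMC, and over the 10574 genes active in both lines it was 0.21, 0.19, 0.20 and 0.13. The DMSO value is also part of the change. For the step from 50 to 200 nM, rho with the GC content of the longest transcript was 0.44 in A673 and 0.39 in SKNMC over the members, and 0.28 and 0.24 over the 10420 genes with a transcript, so genes with AT-rich transcripts tended to be lower at 200 nM. With the length of the gene on the chromosome, rho for the same step was -0.26 and -0.16 over the members and -0.24 and -0.16 over all. The members had a median gene length of 33638 bases, against 31690 over all genes active in both lines.

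Many of the members share their start region with another gene. For 19 of 44 members (43.2%) a listed gene on the other strand starts within 1000 bases, which holds for 22.6% of the genes active in both lines. In some cases the level of a member and of this neighbour went separate ways. Neighbour changes are given as deposited and were not recomputed under the rescalings. PRKDC starts 1 base from MCM4, a helicase subunit, and its change of 0.92 in SKNMC at 200 nM stood beside -0.19 for MCM4. XRCC6, 22 bases from DESI1, had changes of 0.22 and 0.35 in A673 and 0.0039 and 0.03 in SKNMC (all below 0 under the ribosomal median), beside -0.73, -0.26, -1.28 and -0.94 for DESI1. MBD4, 89 bases from IFT122, had changes of -1.25 and -1.45 at 200 nM, beside 0.28 and 0.18 for IFT122. XPC, whose span overlaps the start of LSM3, had -1.38 and -1.44 at 200 nM, beside 0.23 and -0.03 for LSM3.

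In other cases both genes were lower. PMS2 starts 119 bases from AIMP2, a scaffold of the aminoacyl-tRNA synthetase complex, and at 200 nM their changes were -1.11 and -1.38 in A673 and -1.49 and -2.79 in SKNMC. LIG4, 10 bases from ABHD13, had -1.35 and -1.43 at 200 nM beside -1.57 and -1.80. MUTYH, which overlaps the start of TOE1, had -1.20 and -0.92 beside -1.77 and -1.98, and TDG, 95 bases from C12orf73, had -1.36 and -1.08 beside -0.91 and -1.14. Without knowing whether counting used strand, fragments of genes that overlap cannot be told apart, which touches 16 members that overlap a listed gene on the other strand.

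**Figure D5:**
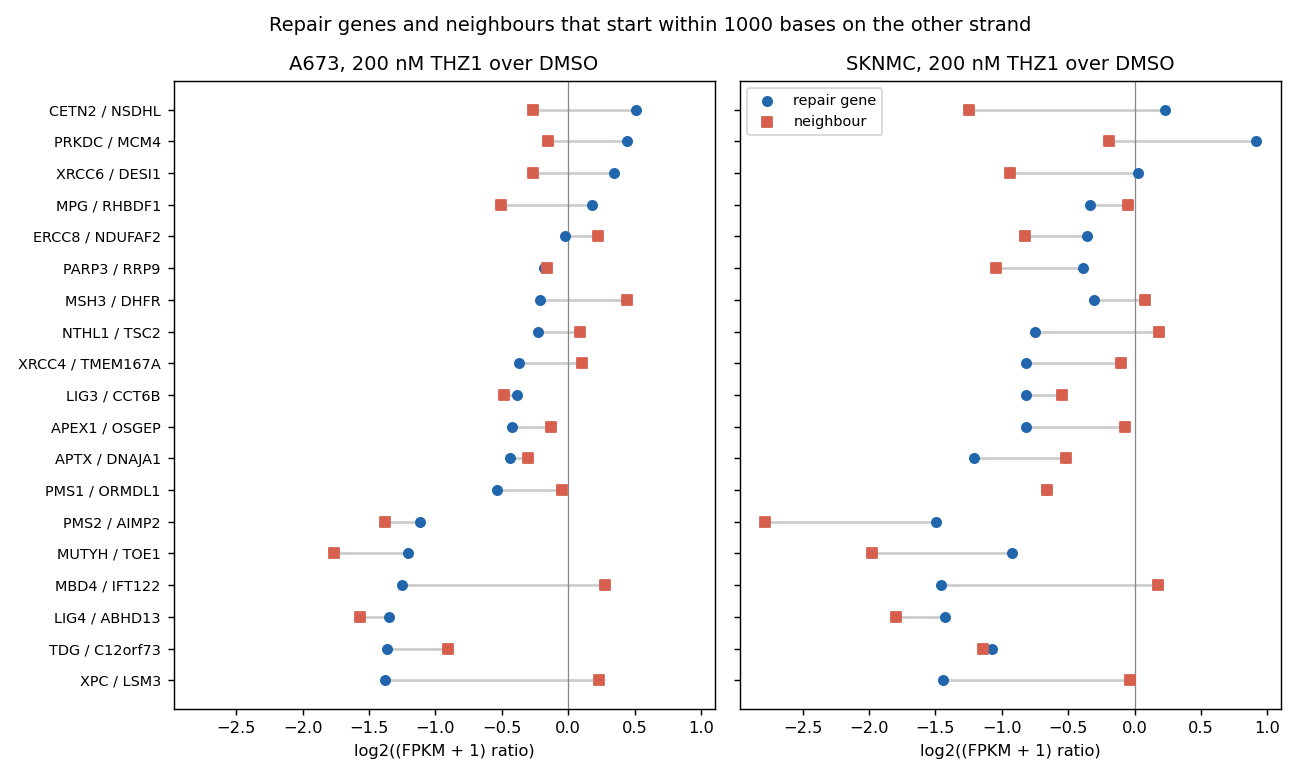
Change at 200 nM THZ1 over DMSO (log2 of the ratio of FPKM + 1) of 19 repair genes (blue circles) and of the neighbours that start within 1000 bases on the other strand (red squares), in A673 and SKNMC, ordered by the change of the repair gene in A673. XPC and MBD4 lie far below their neighbours in both lines, PRKDC and XRCC6 lie above theirs, and PMS2, LIG4 and MUTYH lie low together with theirs.

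A list of 30 further repair genes, such as RPA, PCNA, RFC and FEN1, was set beside the members. Of these, 6 of 29 active genes decreased 2-fold in A673 at 50 nM and 11 at 200 nM, and 6 and 13 of 30 did in SKNMC, beside 15.9%, 25.3%, 15.8% and 27.3% of all active genes, while none increased 1.5-fold. Their medians were -0.37, -0.59, -0.36 and -0.73, and those of all active genes were -0.27, -0.40, -0.32 and -0.55. ALKBH2, which reverses alkylation damage directly, had the lowest mean change, at 15.8, 4.34 and 4.16 FPKM in A673 and at 24.1, 8.49 and 7.08 FPKM in SKNMC. HMGN1, a nucleosome-binding protein, had the highest, at 160.0, 185 and 198 FPKM in A673 and at 233, 274 and 221 FPKM in SKNMC.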

How the data were processed

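RNA was measured in 6 libraries, 1 per condition, and groups were taken from the sample titles. Per the study's methods, the authors sequenced 100-bp paired-end TruSeq libraries, aligned reads to hg19 with STAR and Ensembl 75 junctions, and estimated FPKM with StringTie, while the submitters' processing notes name STAR and Cufflinks. The deposited FPKM table covers 20311 protein-coding and 7109 lincRNA genes, and its title speaks of average expression although the labels give 1 library per condition. Its 4 columns of the authors' log2 fold changes were not used. FPKM keeps no counts, so depth is unknown and no interval from read counts could be given. A low value is less certain than a high one.

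The log2 fold change was computed as log2((FPKM + 1) / (FPKM + 1 of the reference library)) with Python 3.11.15, pandas 2.3.3 and scipy 1.17.1. Active genes had over 1 FPKM with DMSO, and calls used 2-fold or, between doses and for increases, 1.5-fold. The change common to both lines was tested with limma 3.58.1 in R 4.3.3 (cell line and dose as additive terms, trended variance, Benjamini-Hochberg adjustment), a test added after the data were seen. Neighbours were taken from the table's hg19 coordinates, transcripts and pseudogene names from GENCODE release 44 on GRCh37 and promoters from RefSeq. A transcript was found for all 44 members. Alternatives were a pseudocount of 0.1, 3 rescalings, an activity limit of 5 FPKM, no filter and the other fold threshold. The steps were tested on simulated data.

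All 44 members may be named, and most are given in full. The rule asked for per-library values of members decreased in all 4 comparisons, increased 1.5-fold in any, lowest or highest in their role by mean change, 2-fold apart between the lines with DMSO, or under 1 FPKM with DMSO. Partner ratios, neighbours, motifs and sequence features were chosen after values were seen, and the members and lists were chosen with earlier results of these data known.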

Additional observations from a re-analysis of the deposited data

Results flagged for a closer look

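XRCC5 (Ku80) was above DMSO at both doses in A673, with changes of 0.07 and 0.09 on the log2 scale, and below it at both in SKNMC, with -0.05 and -0.24. It is singled out because the libraries of the lines moved in opposite directions. The difference, A673 minus SKNMC, was 0.12 at 50 nM and 0.32 at 200 nM, and it was not tested, because there are no replicates. Under the 75th percentile all 4 changes were above 0, and under the ribosomal median all 4 were below 0.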

How the results depend on the processing

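The labels give no replicate numbers, so the cell line was the only block that could be fitted, and no replicate could be left out. Of 73 counts and medians recomputed under the alternatives, 55 stayed near the reported value and 18 did not. Near meant within 1.5 times a reported count, or within an interval of a reported median drawn from the ranked member values. That interval treats genes as independent although they share libraries, so it serves as a yardstick and does not measure error. With a 1.5-fold threshold the decreased members numbered 20 in A673 at 50 nM, and 21 and 28 in SKNMC at 50 and 200 nM. These were 45.5%, 48.8% and 65.1% of the active members, against 31.8%, 33.5% and 48% of all active genes. Under the 75th percentile the counts in SKNMC were 6 at 50 nM and 7 at 200 nM (14% and 16.3%, against 10.3% and 13.4%). The medians under that scaling were -0.31 and -0.075 in A673 and -0.31 and -0.33 in SKNMC. Under the ribosomal median 29 members decreased in SKNMC at 200 nM (67.4%, against 50.5%). The median was -0.74 in A673 at 50 nM and -0.89 and -1.29 in SKNMC. Members at least 1.5-fold lower at 200 nM than at 50 nM numbered 9 in A673 with a pseudocount of 0.1. With a 2-fold threshold instead, 0 were lower in A673 and 3 in SKNMC. The share over all active genes was not computed for these recounts between the doses. Between the lines with DMSO, 3 members were 2-fold apart with an activity limit of 5 FPKM and 11 were 1.5-fold apart. For these counts too the share over all genes was not computed. Which scaling is nearest to RNA per cell was not tested. Of 696 single gene changes recomputed with another pseudocount or scaling, 53 changed sign, 25 of them under the 75th percentile and 27 under the ribosomal median, and none of these was 2-fold changed in the same comparison as deposited. In all, 14 moved by over 1.5-fold, 11 of them with a pseudocount of 0.1. The line and dose model and the recount of members decreased in all 4 comparisons were chosen after seeing the data. In that model, under the 75th percentile, 7 members were higher at 50 nM (16.3%, against 17.7% of all genes) and 10 at 200 nM (23.3%, against 24.7%). There 17 were lower at 200 nM (39.5%, against 31.9%). Under the ribosomal median 0 were higher at either dose (against 0.984% and 0.331%), also at an unadjusted limma p under 0.05.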
